A study of Mus musculus with 30 samples.

Results

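MicroRNA precursor genes with measurable signal were examined in RNA-seq libraries of mouse splenic B cells. The members are the genes whose symbol starts with Mir and a number, or with Mirlet7, and whose level was at least 10 TPM in 3 or more libraries of a table. TPM is a transcript level scaled for gene length and library size. The aged and the young libraries stand in separate tables, so each table was read on its own. The rule kept 190 of 508 matching genes of the aged libraries (37.4%). It kept 34 of 651 matching genes of the young libraries (5.22%), where 422 of the 651 were listed at 0 throughout. The tables share 22 members, so 202 of the 28279 genes of the series are members in at least 1 of them. Because the rule uses level, a gene that reached 10 TPM through 1 group alone had to differ between groups. This holds for 12 young members, all of them under 10 TPM in every wild-type library, and 153 of the 190 aged members had no wild-type library at 10 TPM. The members just inside the limit, by their third-highest library, were Mir879 (10.0 TPM) and Mir3059 (10.1 TPM) in the aged table and Mir27a (10.4 TPM) and Mir1894 (10.4 TPM) in the young one. Just outside were Mir2136 (9.99 TPM), Mir1942 (9.98 TPM), Mir761 (9.22 TPM, young) and Mir703 (9.19 TPM, young).

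The 18 RNA libraries fall into 5 groups, all C57BL/6. The young mice, 3 months old by their labels and 2 to 3 months by the protocol, were Ikzf3 fl/fl (homozygous, n = 3) or wild type (n = 3). The aged mice, 15 to 18 months old, gave CLL cells (n = 5, of which 4 were Ikzf3 fl/+ and 1 Ikzf3 fl/fl), non-CLL B cells (n = 4, of which 3 were Ikzf3 fl/+ and 1 Ikzf3 fl/fl) and wild-type B cells (n = 3). The fl allele is a conditional knock-in of an Ikzf3 missense mutation that is switched on in B cells only. The promoter or Cre line that restricts it is not given in the sources used here. Aiolos, the product of Ikzf3, is a lymphocyte transcription factor with zinc fingers. CLL cells are the CD5+B220+ leukaemia-like cells of mutant mice, sorted by flow cytometry, and the other B cells were isolated with magnetic beads at a purity of at least 85%. The 12 chromatin samples were not analysed here.

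A microRNA is cut from a long primary transcript. In the nucleus Drosha and its partner Dgcr8 release a hairpin, Xpo5 carries it to the cytoplasm, Dicer1 trims it, and an Argonaute protein loads 1 strand, whose seed pairs with target mRNAs. Many hairpins lie inside other genes, often in introns, and others are clustered on a shared non-coding transcript. RNA-seq of long RNA reads primary transcripts, host gene RNA and hairpin fragments, so the values below are levels of the precursor locus and are not levels of mature microRNA. In B cells, the Mir17-92 cluster acts in progenitor survival and is a Myc target, miR-142 is blood-specific, the 15a and 16-1 pair lies in Dleu2, within a region often deleted in human CLL, and the 23a, 27a and 24-2 cluster is known in mouse progenitors for opposing B lineage choice.

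Sequences in the RefSeq table of GRCm38.p6 (mm10) were found for 179 of the 202 members. The cluster with the largest changes in young cells is shown as its 3 hairpins, 5′ to 3′ on the plus strand, with the mature strands in capitals. They lie at chr8:84208518-84208592, chr8:84208672-84208758 and chr8:84208815-84208921, a span of 404 nt with gaps of 79 and 56 nt, and no gene of the table contains them.
Mir23a: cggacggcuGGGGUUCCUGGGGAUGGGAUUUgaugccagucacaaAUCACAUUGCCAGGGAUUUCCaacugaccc
Mir27a: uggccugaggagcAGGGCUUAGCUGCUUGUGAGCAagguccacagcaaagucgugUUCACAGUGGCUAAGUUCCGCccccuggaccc
Mir24-2: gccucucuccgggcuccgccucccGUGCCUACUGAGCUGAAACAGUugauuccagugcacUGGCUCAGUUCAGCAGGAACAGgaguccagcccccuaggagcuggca

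The mature microRNAs of other members on which the results turn are shown with the seed, bases 2 to 8, in capitals. Mir16-1 and its family share the seed AGCAGCA with 3 further members, Mir15a, Mir15b and Mir16-2. Mir17 and Mir20a share a seed, as do Mir19a and Mir19b-1, while the seed of miR-18a differs from that of miR-17 within the same cluster. The 295 mature sequences of all members held 250 different seeds, and 28 of these were shared by 2 or more member genes.
miR-16-5p (Mir16-1): uAGCAGCAcguaaauauuggcg
miR-7a-5p (Mir7-1): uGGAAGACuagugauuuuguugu
miR-25-3p (Mir25): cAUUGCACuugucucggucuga
miR-3064-5p (Mir3064): uCUGGCUGuuguggugugcaaa
miR-142a-3p (Mir142): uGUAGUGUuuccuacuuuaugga
miR-703 (Mir703): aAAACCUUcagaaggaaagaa
miR-17-5p (Mir17): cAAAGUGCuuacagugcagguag
miR-20a-5p (Mir20a): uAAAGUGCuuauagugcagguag
miR-18a-5p (Mir18): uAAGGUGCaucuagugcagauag
miR-19a-3p (Mir19a): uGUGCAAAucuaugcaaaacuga
miR-19b-3p (Mir19b-1): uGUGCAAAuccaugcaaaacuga

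Every library sums to 1000000 TPM. TPM keeps no total read number, but the value of a hairpin times its length was a whole multiple of 1 step per library, within 2%, for 2294 of 2311 values at 1 to 20 steps in the aged table (99.3%) and 537 of 538 in the young table (99.8%). The step was read as 1 read, which gives the reads behind each hairpin. On an 82-nt hairpin 1 read was worth 0.611 to 0.688 TPM in young homozygous libraries and 0.245 to 0.45 TPM in young wild-type libraries, so wild-type libraries were the deeper ones. It was worth 2.48 to 4.95 TPM in CLL libraries, 3.05 to 31.1 TPM in non-CLL libraries and 0.889 to 1.23 TPM in aged wild-type libraries. B cell markers summed to 8960 to 9620 TPM in young homozygous and 8377 to 9777 TPM in young wild-type libraries, and none of the 8 was at 0 in any of the 5 groups.

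In young B cells, microRNA precursor loci were mostly higher in homozygous mice. Of the 34 members, 27 rose and 0 fell (limma on log2(TPM + 1), Benjamini-Hochberg over 12219 genes, adjusted p under 0.05). Across all genes tested 51% were called, 38.4% higher and 12.6% lower. Among the 8413 genes that met the same minimum of 10 TPM in 3 libraries, 44.8% were higher and 12.8% lower. The median log2 change was 1.44 over the members, 0.21 over the genes at the same minimum and 0.18 over all genes tested. Of the 11 members at 10 TPM or more in every wild-type library 7 rose, with a median log2 change of 0.57, and all 12 members under 10 TPM in every wild-type library rose, as their choice favours. The groups did not overlap, with homozygous higher, for 28 members (44.5% of all genes), and with homozygous lower for 1 (16.9% of all genes).

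The 12 myeloid markers summed to 151 to 394 TPM in homozygous libraries and 1384 to 5225 TPM in wild-type ones. Of 9 tested, 0 rose and 5 fell, and none was at 0 in either group throughout. The 4 NK markers summed to 3.9 to 8.25 TPM in homozygous libraries and 15.7 to 90.5 TPM in wild-type ones. Of these 4, 1 fell. The 7 T cell markers summed to 11.7 to 19.8 TPM in homozygous and 16.1 to 39.9 TPM in wild-type libraries, and 2 fell. The 3 plasmacytoid dendritic cell markers summed to 53.3 to 68.0 TPM in homozygous and 72.3 to 117 TPM in wild-type libraries. Of these 3, 1 fell. Erythroid markers summed to 22.4 to 145 TPM in homozygous and 163 to 210 TPM in wild-type libraries, with 0 of 8 called. With wild-type libraries 1 and 2, the 2 with the highest myeloid sums, left out, 1 wild-type library remained, so the spread came from the 3 homozygous libraries alone and the lone library was assumed to vary like them. For that reason no count of calls from that fit is given. The part of these other cells in the remaining values was not tested, and in bulk RNA fewer cells of a type cannot be told apart from less RNA per cell.

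The 3 members of the Mir23a cluster had the 3 largest log2 changes among the young members. Mir24-2 was at 111, 77.0 and 79.1 TPM in homozygous libraries, against 2.27, 4.13 and 4.14 TPM in wild-type libraries. These rest on 237, 146 and 150 reads in homozygous and 12, 22 and 12 reads in wild-type libraries. All homozygous values lay far above all wild-type values, a log2 change of 4.33 (SE 0.22). The 3 genes are among the 12 members under 10 TPM in every wild-type library, so they entered through their homozygous levels and their changes are given as a description. Mir23a was at 16.7, 13.5 and 15.0 TPM in homozygous libraries, against 0, 0.536 and 0.492 TPM in wild-type libraries, with a log2 change of 3.60 (SE 0.19). Mir27a was at 12.1, 13.0 and 10.4 TPM in homozygous libraries, against 1.39, 1.39 and 0 TPM in wild-type libraries, with a log2 change of 2.84 (SE 0.35). Neither gene's groups overlapped. Scaled for depth, the ratio of reads was 26.4 for Mir24-2 (95% exact counting interval 19.5 to 36.5), 47.9 for Mir23a (15.7 to 238, with 3 wild-type reads in all) and 10.8 for Mir27a (5.75 to 22.2). These intervals cover counting error only, and they do not include the spread between libraries.

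Within the cluster the 3 hairpins were not at 1 level. In homozygous libraries the Mir24-2 hairpin averaged 89.0 ± 19.0 TPM (SD, n = 3), while Mir23a averaged 15.1 ± 1.58 TPM and Mir27a 11.8 ± 1.32 TPM. TPM is scaled for length, but how the authors treated rows this short is not given in the sources used here, so the order of these levels was not tested. Mir24-2 lies at the downstream end of the cluster.

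Mir5107 and Mir3064 had the highest mean levels of the young members. Mir5107, inside Cd74 (the invariant chain of MHC class II), was at 1612, 1515 and 1728 TPM in homozygous libraries, against 312, 235 and 315 TPM in wild-type libraries. Mir3064, inside Ddx5 (an RNA helicase that also serves as a cofactor of Drosha), was at 878, 1018 and 1088 TPM in homozygous libraries, against 211, 218 and 192 TPM in wild-type libraries. Neither pair of groups overlapped. The log2 changes were 2.50 for Mir5107 (SE 0.12) and 2.26 for Mir3064 (SE 0.10), with adjusted p of 5e-06 and 4e-06. Mir5125, inside Srrm2 (a splicing factor of nuclear speckles), averaged 307 ± 32.8 TPM in homozygous libraries and 130 ± 46.6 TPM in wild-type ones (SD, n = 3 each; log2 change 1.30, adjusted p = 0.0151). Without homozygous library 2 its adjusted p was 0.0539, and without homozygous library 3 it was 0.0544.

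**Figure D1:**
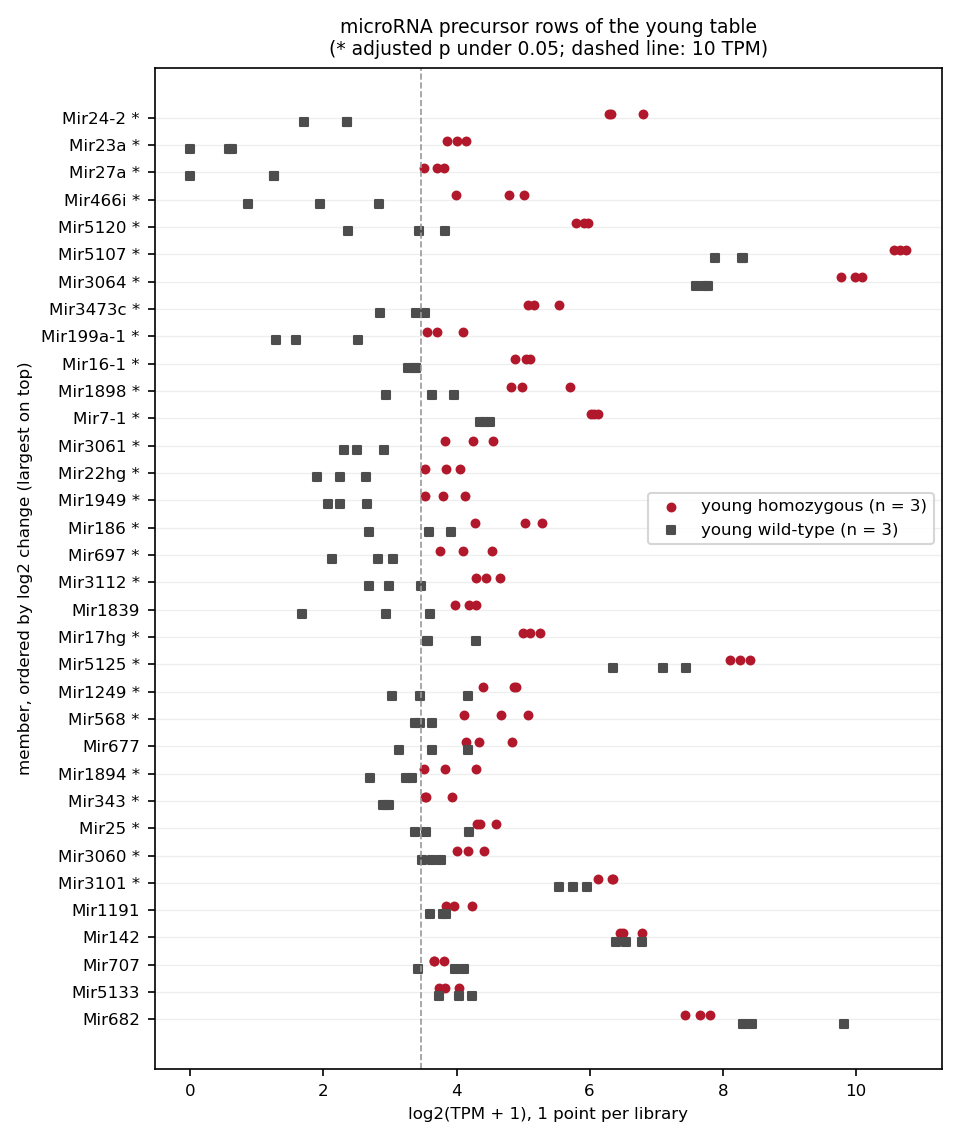
Level of the 34 young members, log2(TPM + 1), with 1 point per library: red circles for young homozygous and grey squares for young wild-type libraries, 3 each. Members are ordered by log2 change and a star marks an adjusted p under 0.05; Mir24-2, Mir23a and Mir27a stand on top, and for Mir682 at the bottom the homozygous libraries are the lower ones.

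Mir16-1, the partner of Mir15a in Dleu2, and Mir7-1, from an RNA-binding protein gene, rose as well. Mir16-1 was at 33.4, 28.5 and 32.1 TPM in homozygous libraries, against 9.34, 8.64 and 9.52 TPM in wild-type libraries (log2 change 1.67, SE 0.10). Mir7-1, inside Hnrnpk, was at 64.0, 65.8 and 68.9 TPM in homozygous libraries, against 21.7, 19.4 and 20.5 TPM in wild-type libraries (log2 change 1.65, SE 0.08). In each case the homozygous values were close together and all above the wild-type ones, and Mir16-1 is among the 12 members whose choice favours a rise. Mir15a, which shares its seed and its host with Mir16-1, was not a member in the young table: it was at 0 to 0.596 TPM in homozygous libraries and at 0 in all wild-type libraries.

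Mir25, from a trio of hairpins in the replication gene Mcm7, averaged 20.5 ± 2.4 TPM in homozygous libraries and 12.4 ± 4.19 TPM in wild-type ones (log2 change 0.73, adjusted p = 0.0239). The host gene row Mir17hg was at 33.5, 30.8 and 37.2 TPM in homozygous libraries, against 10.9, 10.8 and 18.6 TPM in wild-type libraries (log2 change 1.31, adjusted p = 0.00209). Mir22hg was at 15.6, 13.3 and 10.5 TPM in homozygous libraries, against 3.78, 5.2 and 2.76 TPM in wild-type libraries (log2 change 1.54), and it too is among the 12. Mir22hg carries miR-22, whose own row was at 0 in every young library.

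Mir5120, inside the B cell identity gene Pax5, averaged 58.4 ± 3.77 TPM in homozygous libraries and 9.06 ± 4.59 TPM in wild-type ones, a log2 change of 2.68 (SE 0.39). Mir466i, inside Cdk13, averaged 24.2 ± 8.42 TPM in homozygous libraries and 3.26 ± 2.66 TPM in wild-type ones. Its log2 change of 2.72 (adjusted p = 0.0158) lost its call without homozygous library 2 (adjusted p = 0.0588), homozygous library 3 (0.0526), or wild-type library 1 (0.0578), and it is among the 12 members under 10 TPM in every wild-type library. Mir3473c, inside Traf5, had a log2 change of 2.00 (37.6 ± 6.71 TPM in homozygous, 8.72 ± 2.24 TPM in wild-type libraries). Mir199a-1, on the opposite strand of Dnm2, had one of 1.99 (13.0 ± 2.81 TPM in homozygous, 2.73 ± 1.77 TPM in wild-type libraries). Like Mir466i, Mir199a-1 is among the 12 members whose choice favours a rise. The other members that rose had log2 changes between 0.52 and 1.66.

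The 7 members without a call were Mir142, Mir1191, Mir1839, Mir677, Mir682, Mir707 and Mir5133. Mir142, a high one among them, was at 109, 89.9 and 86.4 TPM in homozygous libraries, against 110, 83.2 and 92.3 TPM in wild-type libraries. The groups overlapped fully, with a log2 change of 0.00 (SE 0.12). Mir682, which lies in the span of a pseudogene, Gm4149, was at 201, 223 and 172 TPM in homozygous libraries, against 348, 316 and 901 TPM in wild-type libraries. Its groups did not overlap, yet the log2 change of -1.22 did not pass (adjusted p = 0.0794), and wild-type library 3 stood far above the other wild-type libraries.

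The balance of higher and lower calls depended on the scale. With the libraries rescaled on the median of genes that average at least 20 TPM, the median log2 change of all genes was -0.02, against 0.18 as deposited, and 2885 genes were called higher and 2824 lower, against 4698 higher and 1539 lower as deposited. Under that scale 24 members were called higher and 1 lower, and Mir3101 lost its call (log2 change 0.30, adjusted p = 0.0732).

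Most young hairpins lie inside another gene, so precursor and containing gene were compared. Of the 32 hairpins 27 lie inside a gene, 23 of these in a protein-coding one. Of the 27, 20 are on the same strand, 2 on the opposite strand, and for 5 the strand is not known. For 26 pairs both rows were tested: 21 of these members and 16 of their containing genes rose, and both rose in 14. Of all genes tested, 38.4% rose. Whether both rise more often in these pairs than in unmatched pairs of the same rows was not tested. The median log2 change was 1.42 for the members and 0.29 for the containing genes, and the member's change was above its gene's in 22 of 26 pairs. The rule chose members and not containing genes, and it favours a rise of members that needed homozygous libraries to pass. Of the 26 members, 7 were under 10 TPM in every wild-type library, and all 7 were above their gene. Among the 19 that reached 10 TPM in at least 1 wild-type library, 15 were above their gene. The median log2 changes of the 19 were 1.30 for the members and 0.25 for the genes. Those of the 19 with fewer than 3 wild-type libraries at 10 TPM also needed homozygous libraries to pass. The 8 at 10 TPM or more in every wild-type library did not, and 5 of them were above their gene. The median log2 changes of the 8 were 0.93 for the members and 0.27 for the genes. The ratio of member to gene, per library, was higher in all homozygous than in all wild-type libraries for 18 pairs and lower for 1 (Mir1191 in BC024978). These 18 were not split by how the member passed the rule, and such ratios were not computed for other genes. As single rows, 44.5% of all genes were higher in all homozygous libraries and 16.9% lower. Pearson's r between the changes was 0.33 over the 26 pairs, a description across genes that share the same 6 libraries.

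Examples show how far the pairs parted. Mir3064 stood at 35.6%, 37.7% and 39.5% of the level of Ddx5 in homozygous libraries, against 13.5%, 13.9% and 11.6% in wild-type libraries. Ddx5 itself rose by a log2 change of 0.73. Mir5107 stood at 15.6%, 14.8% and 16.7% of the level of Cd74 in homozygous libraries, against 3.27%, 2.66% and 3.22% in wild-type libraries. Cd74 had a log2 change of 0.14 (adjusted p = 0.201).

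Mir16-1 was above its host row in every homozygous library, at 324%, 260% and 309% of the level of Dleu2, against 71.0%, 62.5% and 114% in wild-type libraries. Dleu2 was at 10.3 to 11.0 TPM in homozygous libraries and 8.36 to 13.8 TPM in wild-type ones (log2 change -0.12, adjusted p = 0.583). Mir7-1 stood at 12.1%, 11.7% and 11.9% of Hnrnpk in homozygous libraries, against 4.77%, 4.1% and 4.25% in wild-type libraries. Mir5125 and Srrm2 moved alike, with log2 changes of 1.30 and 1.39, and their ratios overlapped between groups. A row for a hairpin inside an expressed gene can hold reads of the gene's own RNA. With gene spans only in the annotation used here, exons and introns were not told apart.

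**Figure D2:**
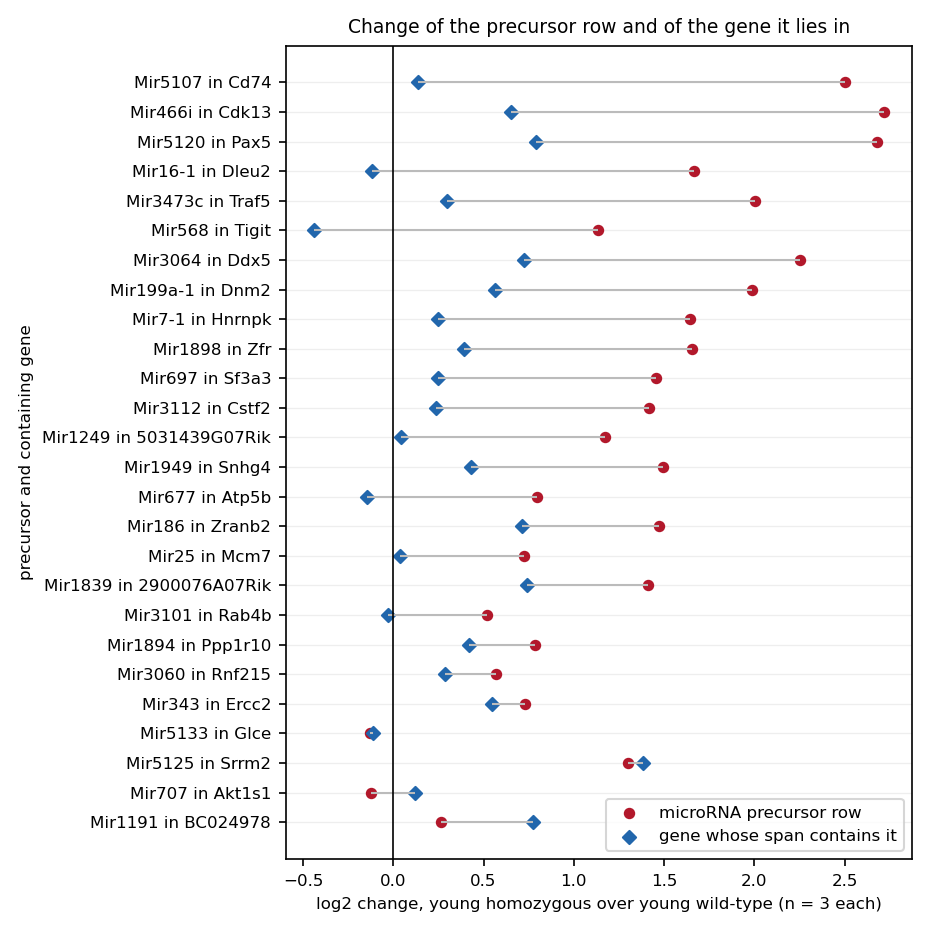
Log2 change, young homozygous over young wild-type B cells (3 libraries each), of 26 precursor rows (red circles) and of the gene whose span contains each (blue diamonds). The precursor lies to the right of its gene in 22 of 26 pairs, with the widest gaps for Mir5107 in Cd74, Mir466i in Cdk13 and Mir5120 in Pax5.

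Small nucleolar RNA rows, which like microRNAs are short and often intronic, gave a point of comparison under the same minimum. In young cells 56 of 72 such rows rose and 0 fell, with a median log2 change of 1.01. The share of rows that rose was 77.8% for these and 79.4% for the microRNA precursors.

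Genes of the microRNA pathway were also mostly higher in young homozygous cells. A list of 46 symbols, alternative names included, had 42 listed and 40 tested, of which 31 rose (77.5%) and 0 fell, with a median log2 change of 0.53. Of all genes tested, 38.4% rose and 12.6% fell, with a median log2 change of 0.18. Among genes at 10 TPM in 3 or more libraries, 44.8% rose and 12.8% fell. Argonaute genes led the list: Ago2, the slicing Argonaute, averaged 55.2 ± 10.9 TPM in homozygous libraries and 20.3 ± 1.86 TPM in wild-type ones (log2 change 1.39, adjusted p = 0.00036). Ago3 averaged 10.4 ± 1.68 TPM in homozygous libraries and 3.41 ± 0.33 TPM in wild-type ones (log2 change 1.36, adjusted p = 0.000318). The helicase Ddx3x had a log2 change of 0.99 and the exonuclease Xrn1 one of 0.92. Among the core processing genes, Dicer1 rose by 0.52 (adjusted p = 0.00277), Xpo5 by 0.45 and Dgcr8 by 0.32, each on the log2 scale. Drosha averaged 14.9 ± 0.66 TPM in homozygous libraries and 13.8 ± 1.07 TPM in wild-type ones (log2 change 0.10, adjusted p = 0.394). On the rescaled values 22 were called higher and 1 lower.

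Of 13 mRNAs documented as targets of B cell microRNAs, 10 rose and 1 fell in young homozygous cells, where 38.4% of all genes rose and 12.6% fell. Foxo1 (log2 change 0.82), Jarid2 (0.68), Myb (0.67) and Foxp1 (0.61) were among those higher. Socs1, an inhibitor of cytokine signalling and a target of miR-155, averaged 1.62 ± 0.47 TPM in homozygous libraries and 4.81 ± 1.03 TPM in wild-type ones (log2 change -1.15, adjusted p = 0.00177). Ikzf3 itself averaged 413 ± 29.6 TPM in homozygous libraries and 246 ± 31.2 TPM in wild-type ones.

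In the aged table, few members rest on many reads. All 190 members reached 10 TPM in at least 1 non-CLL library, 175 in at least 1 CLL library and 37 in at least 1 wild-type library. In non-CLL library 6, 1 read on an 82-nt hairpin was already 31.1 TPM, and 49 of the 90 members at 10 TPM or more there rest on 1 read. The median level of 1106 olfactory receptor rows, genes with no known role in B cells, was 1.09 to 2.71 TPM in CLL libraries 1, 2, 4 and 5, 9.66 TPM in CLL library 6, 7.16 to 9.24 TPM in non-CLL libraries and 0 to 0.745 TPM in wild-type libraries. The median member was at 2.24 to 16.4 TPM in CLL, 12.8 to 28.6 TPM in non-CLL and 0 to 1.34 TPM in wild-type libraries, in the same order. Without non-CLL library 6, a choice made after its values were seen, 156 genes meet the rule.

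**Figure D3:**
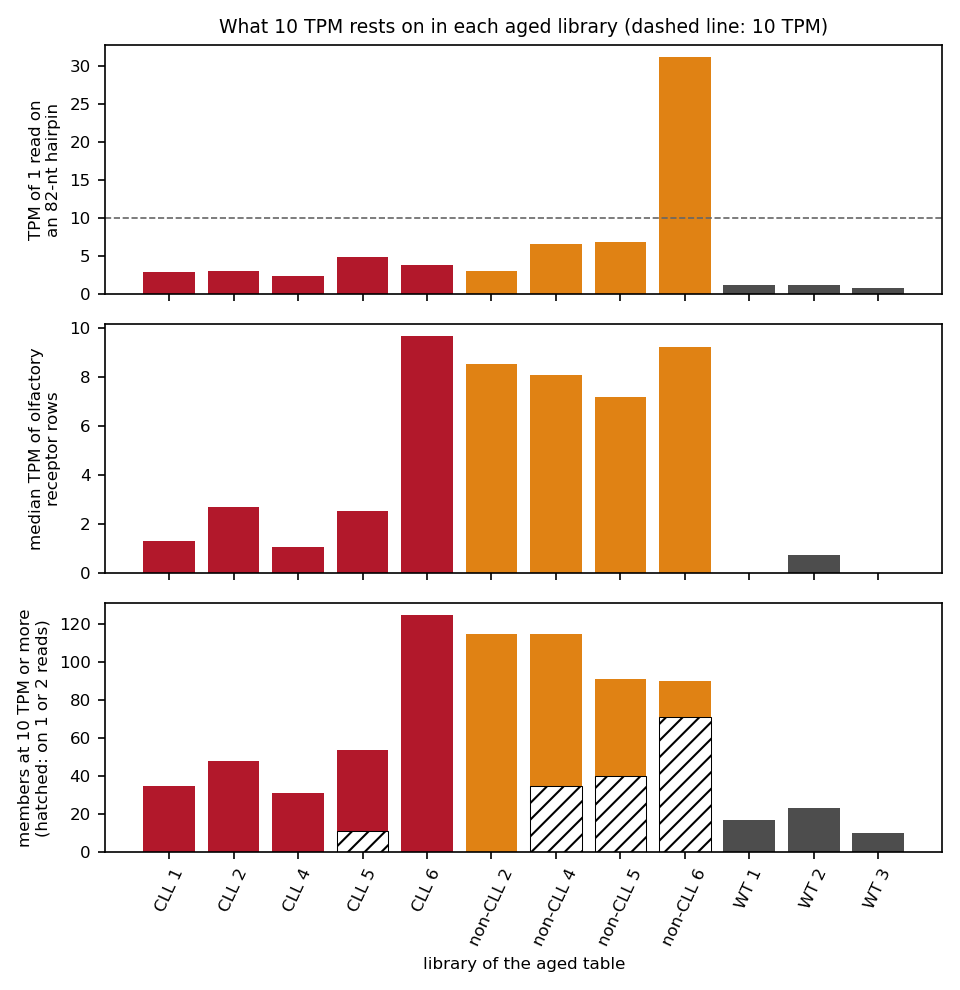
For each aged library (CLL red, non-CLL orange, wild-type grey): the TPM that 1 read gives on an 82-nt hairpin, the median TPM of olfactory receptor rows, and the number of members with recovered reads at 10 TPM or more, with those on 1 or 2 reads hatched. Non-CLL library 6 stands out with 31.1 TPM per read, and CLL library 6 has a median olfactory receptor level of 9.66 TPM, like the non-CLL libraries.

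The 4 members at 10 TPM or more in every aged library were Mir3064, Mir3101, Mir5107 and Mir17hg. Mir3064 averaged 737 ± 112 TPM in CLL libraries, 780 ± 236 TPM in non-CLL libraries and 513 ± 55.4 TPM in wild-type libraries. It stood at 38.2% to 62.0% of Ddx5 in CLL, 28.8% to 51.7% in non-CLL and 38.4% to 47.1% in wild-type libraries, ranges that overlap. Mir3101, inside Rab4b (a small GTPase of endosomes), averaged 497 ± 175 TPM in CLL libraries, 471 ± 97.4 TPM in non-CLL libraries and 274 ± 97.4 TPM in wild-type libraries. Mir5107 averaged 195 ± 77.2 TPM in CLL libraries, 226 ± 41.1 TPM in non-CLL libraries and 138 ± 38.0 TPM in wild-type libraries. None of these 3 passed the test between CLL and wild-type cells. Between non-CLL and wild-type cells, Mir3101 (log2 change 0.82, adjusted p = 0.0324) and Mir5107 (0.72, adjusted p = 0.0327) passed. Neither passed once the olfactory receptor median was subtracted, though the log2 changes were then 0.80 and 0.67 (adjusted p = 0.157 and 0.168).

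Mir703 differed most clearly from the wild-type level in aged mutant mice. It was at 390, 219, 142, 250 and 170 TPM in CLL libraries, 179, 145, 223 and 70.2 TPM in non-CLL libraries and 25.0, 7.41 and 22.7 TPM in wild-type libraries. Neither CLL nor non-CLL values overlapped the wild-type ones. The CLL values rest on 59 to 175 reads, the non-CLL values on 78, 29, 43 and 3 reads and the wild-type values on 28, 8 and 34 reads. The lowest non-CLL value, 70.2 TPM in library 6, is the one on 3 reads. The log2 change was 3.67 for CLL against wild-type cells (SE 0.37, adjusted p = 1.8e-08) and 3.05 for non-CLL against wild-type cells (SE 0.48, adjusted p = 0.000317). It kept its call in both comparisons when the olfactory receptor median was subtracted (adjusted p = 0.00104 and 0.0486). Between CLL and non-CLL cells it did not pass (log2 change 0.63, adjusted p = 0.155). The hairpin lies at chr5:98475556-98475664 inside the span of Cfap299, a gene of the cilium. In the young table, where it is not a member, Mir703 was at 8.28 to 9.19 TPM in homozygous libraries and 3.72 to 15.9 TPM in wild-type ones.

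The hairpins of the Mir17-92 cluster formed the other set with high aged levels. Mir20a was at 52.2, 126, 83.8, 129 and 141 TPM in CLL libraries, 147, 194, 158 and 262 TPM in non-CLL libraries and 1.82, 123 and 8.18 TPM in wild-type libraries. Wild-type library 2 stood apart from the other wild-type libraries and within the CLL range. Mir17, Mir18, Mir19a and Mir19b-1 behaved alike: over these 4, CLL libraries ranged from 37.9 to 168 TPM and non-CLL libraries from 58.4 to 280 TPM. Wild-type library 2 was at 59.2 to 87.4 TPM and the other wild-type libraries at 1.02 to 8.12 TPM. Mir17hg, annotated just downstream of these hairpins at chr14:115044390-115046728, averaged 108 ± 31.1 TPM in CLL libraries, 150 ± 36.3 TPM in non-CLL libraries and 64.1 ± 29.3 TPM in wild-type libraries.

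Between CLL and wild-type cells none of the 5 hairpins passed the test, with log2 changes from 2.70 to 3.50 and adjusted p from 0.0626 to 0.12. Between non-CLL and wild-type cells all 5 rose, with log2 changes from 2.88 to 4.28 and adjusted p from 0.00574 to 0.0189. Subtracting the olfactory receptor median ended these calls (adjusted p from 0.0603 to 0.0943), with log2 changes of 2.72 to 4.22. Without wild-type library 2, all 5 rose in CLL against wild-type cells, with log2 changes from 3.86 to 5.16, a choice made after its values were seen. In wild-type library 2, 96.4% of the listed genes were above 0, against 66.2% and 62.4% in the other wild-type libraries.

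**Figure D4:**
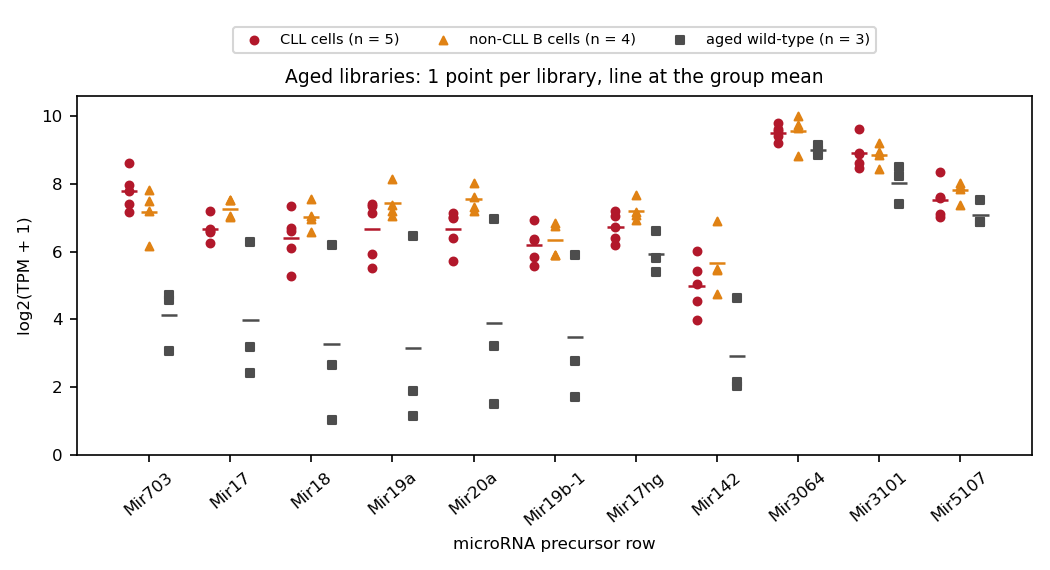
Level, log2(TPM + 1), of Mir703, the Mir17-92 hairpins, Mir17hg, Mir142 and the 3 highest aged members, with 1 point per library and a line at the group mean: CLL cells (red circles), non-CLL B cells (orange triangles), aged wild-type B cells (grey squares). Mir703 is the one row of the plot whose CLL and non-CLL libraries all lie far above all wild-type libraries, and wild-type library 2 lies with the mutant libraries for the Mir17-92 hairpins.

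Other members with a known role in blood cells were low. Mir142 averaged 34.8 ± 19.0 TPM in CLL libraries, 58.0 ± 41.8 TPM in non-CLL libraries and 10.0 ± 11.8 TPM in wild-type libraries, on 39, 22 and 20 reads in all. It rose in non-CLL against wild-type cells (log2 change 2.72, adjusted p = 0.0086). In CLL against wild-type cells it did not pass (log2 change 2.07, adjusted p = 0.0505). Mir155, the microRNA of activated B cells, averaged 16.3 ± 13.6 TPM in CLL libraries, 25.2 ± 9.9 TPM in non-CLL libraries and 13.5 ± 19.2 TPM in wild-type libraries, with no call in the 3 comparisons. Mir15a was at 2.89 to 9.05 TPM in CLL, 0 to 32.5 TPM in non-CLL and 0 to 2.4 TPM in wild-type libraries. Mir16-1 rests on 5 reads in CLL and 11 reads in non-CLL libraries and is listed at 0 in wild-type libraries. Mir23a, so much higher in young homozygous cells, was at 0 to 12.6 TPM in CLL, 0 to 23.3 TPM in non-CLL and 0 to 9.42 TPM in wild-type libraries, with no call. Its neighbours are not members in the aged table. Mir27a was at 0 to 8.37 TPM in CLL, 0 to 29.3 TPM in non-CLL and 0 to 4.64 TPM in wild-type libraries. Mir24-2 was at 0 to 6.81 TPM in CLL, 0 to 5.27 TPM in non-CLL and 0 to 2.83 TPM in wild-type libraries, on at most 3 reads in any of them.

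Between CLL and wild-type cells 26 of the 172 members tested rose and 0 fell (limma, adjusted p under 0.05), against 3.54% of all 21202 genes called and 2.94% called higher. The median log2 change was 1.69 over the members (1.62 with those at 0 in wild type set to 3 reads over the group) and 0.93 over all genes. By direction, 0.604% of all genes were called lower. The groups did not overlap, with CLL higher, for 27 members (29% of all genes) and, with CLL lower, for 0 (2.55% of all genes). Of the 26, 23 were under 10 TPM in every wild-type library, as the rule favours, and 10 of these are listed at 0 there. Of the 8 members at 10 TPM or more in every wild-type library, limma called 0 (2 at an unadjusted p under 0.05). Among the 12609 genes at the same minimum, 3.93% were higher and 1.01% lower, with a median log2 change of 0.27. Among 1042 olfactory receptor rows tested, 50 rose and 0 fell, with a median log2 change of 1.60. Of 10 myeloid, 6 T cell, 5 erythroid, 4 NK and 3 plasmacytoid dendritic cell markers tested, 0 were called. Myeloid markers summed to 56.8 to 2974 TPM in CLL and 15.8 to 172 TPM in wild-type libraries, and the part of such cells in the members' values was not tested. Mir704, inside the endoplasmic reticulum chaperone gene Pdia4, averaged 29.1 ± 12.1 TPM in CLL and 3.31 ± 2.13 TPM in wild-type libraries (log2 change 2.84). Pdia4 had a log2 change of 1.39. Mir29b-1 averaged 12.8 ± 11.6 TPM in CLL and 0.474 ± 0.821 TPM in wild-type libraries, there on 1 read in all. Both Mir704 and Mir29b-1 are among the 23 under 10 TPM in every wild-type library, so their changes are given as a description. After subtraction of the olfactory receptor median the count was 1, Mir703. The count was 68, 51 and 93 without CLL library 1, 2 or 4, and 99 and 15 without wild-type library 2 or 3.

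Between CLL and non-CLL cells 0 of 188 members tested rose and 15 fell, against 5.77% of 22316 genes called, 0.744% higher and 5.02% lower. The groups did not overlap, with CLL lower, for 9 members (7.51% of all genes) and, with CLL higher, for 0 (1.17% of all genes). The median log2 change was -0.80 over the members and -0.77 over all genes. Among the 12636 genes at the same minimum, 1.31% were higher and 6.01% lower, with a median of -0.34. All 190 aged members reached 10 TPM in at least 1 non-CLL library. Through non-CLL libraries alone 15 passed the rule, and through CLL libraries alone 0, so the rule favours a fall here. The changes of the members named next are therefore given as a description. Mir759 averaged 1.7 ± 2.79 TPM in CLL libraries, on 3 reads in all, and 23.1 ± 19.5 TPM in non-CLL libraries (log2 change -3.40). Mir463 (log2 change -3.14), Mir128-1 (-3.00), Mir1947 (-2.93), Mir504 (-2.59) and Mir3473d (-1.69) were lower as well, with groups that did not overlap. These 6 hairpins rest on 1 to 13 reads in each non-CLL library. Olfactory receptor rows had a median log2 change of -1.25, with 0 higher and 107 lower of 1101. Some markers of other cells were lower too: 3 of 3 plasmacytoid dendritic cell markers (summed 10.3 to 48.8 TPM in CLL, 203 to 1037 TPM in non-CLL libraries), 3 of 4 NK markers (7.80 to 50.6 TPM in CLL, 107 to 672 TPM in non-CLL libraries) and 3 of 6 T cell markers (9.12 to 381 TPM in CLL, 106 to 340 TPM in non-CLL libraries). Of 10 myeloid and 5 erythroid markers tested, 0 were called. Myeloid markers summed to 56.8 to 2974 TPM in CLL and 124 to 176 TPM in non-CLL libraries. Erythroid markers summed to 4.79 to 45.2 TPM in CLL and 34.5 to 50.6 TPM in non-CLL libraries. Their part in the members' values was not tested. The same-numbered CLL and non-CLL libraries come from the same mice, and the main fit did not use this pairing. With the mouse as a block, a fit that leaves out the unpaired CLL library 1, 1 member rose and 27 fell. The share of all genes called in that fit is not given here, so these counts cannot be placed beside it. The count was 8, 5 and 46 without CLL library 1, 4 or 6, and 4 after subtraction of the olfactory receptor median.

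Between non-CLL and wild-type cells 104 of 177 members rose and 0 fell, against 57.3% of 22150 genes called, 55.8% higher and 1.48% lower. The groups did not overlap, with non-CLL higher, for 64 members (53.7% of all genes) and, with non-CLL lower, for 0 (2.33% of all genes). The median log2 change was 2.72 over the members (2.57 with those at 0 in wild type set to 3 reads over the group) and 1.65 over all genes. Among the 12618 genes at the same minimum, 31.6% were higher and 2.59% lower, with a median of 0.41. Of the 104, 88 were under 10 TPM in every wild-type library, as the rule favours, and 45 of these are listed at 0 there. Of the 8 members at 10 TPM or more in every wild-type library, 3 rose. Olfactory receptor rows rose in 1038 of 1098 cases. The 4 NK markers summed to 107 to 672 TPM in non-CLL and 1.97 to 19.6 TPM in wild-type libraries, and all 4 rose. All 3 plasmacytoid dendritic cell markers rose (203 to 1037 TPM in non-CLL, 4.68 to 183 TPM in wild-type libraries), as did 4 of 6 T cell, 5 of 10 myeloid and 3 of 5 erythroid markers tested. T cell markers summed to 106 to 340 TPM in non-CLL and 2.02 to 618 TPM in wild-type libraries, myeloid markers to 124 to 176 TPM in non-CLL and 15.8 to 172 TPM in wild-type libraries, and erythroid markers to 34.5 to 50.6 TPM in non-CLL and 1.89 to 43.5 TPM in wild-type libraries. Their part in the members' values was not tested. After subtraction of the olfactory receptor median 2 members were called, Mir703 and Mir720, and the count was 66 without non-CLL library 2 and 59 without wild-type library 3.

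The microRNA pathway genes of the aged table were set beside all genes. Of 35 tested, limma called 0 between CLL and wild-type cells (8 at an unadjusted p under 0.05) and 0 between CLL and non-CLL cells (4 at an unadjusted p under 0.05). Of all genes tested, 3.54% and 5.77% were called in these comparisons, and 0 of 35 is near such shares. The count between CLL and wild-type cells was 2, 6 and 3 without CLL library 1, 4 or 6 and 2 without wild-type library 2. The count between CLL and non-CLL cells was 2 without CLL library 6. Between non-CLL and wild-type cells 5 rose and 1 fell, with 3 called without wild-type library 1. Of all genes tested there, 55.8% rose and 1.48% fell. Among genes at 10 TPM in 3 or more libraries, 31.6% rose and 2.59% fell. Lin28a and Lin28b, blockers of let-7 maturation, averaged 5.41 ± 1.64 and 10.4 ± 3.22 TPM in non-CLL B cells, beside an olfactory receptor median of 7.16 to 9.24 TPM there. In wild-type B cells they averaged 0.0967 ± 0.167 and 0.248 ± 0.384 TPM. Ddx5 had a log2 change of 0.63 (adjusted p = 0.017) and the cap-binding gene Ncbp1 one of -0.75 (adjusted p = 0.0415). Of the 12 documented targets tested, 0 were called between CLL and wild-type cells (limma, 0 at an unadjusted p under 0.05) and 0 between CLL and non-CLL cells (1 at an unadjusted p under 0.05). Between non-CLL and wild-type cells 1 was called, Myb, which rose by 1.35 on the log2 scale. The shares of all genes given above hold for these counts too.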

How the data were processed

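RNA-seq of splenic B cells was deposited as 2 tables of TPM values: TPM is named in the aged samples' labels, and the young values were taken as TPM because each library sums to 1000000. The submitters' processing notes name mm10, MACS2 2.2.0, STAR 2.4.0.1 and Bowtie2 2.3.4.1, without their roles. Quantifier and annotation: not given in the sources used here. Young libraries were made with a TruSeq kit, per the labels' protocols. Names turned into dates (25 aged, 26 young) and 887 unnamed young entries (4.44% to 9.37% of TPM) were left out.

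Each comparison was fitted on its 2 groups with limma 3.58.1 in R 4.3.3 on log2(TPM + 1) (trend and robust estimation, two-sided). A gene entered when the number of its libraries at 1 TPM or more reached the size of the smaller group, p-values were adjusted over all of them, and the procedure was tested on simulated data. Log2 changes are on that scale and understate changes of low genes. The 3 aged comparisons share libraries. Labels do not say that young libraries are separate animals, so p-values measure the spread between libraries. Reads per hairpin were recovered from TPM times hairpin length and used for description only. Named were the Mir23a cluster, the 10 highest members per table, the 8 largest called changes per direction without overlap, host rows and a list of blood microRNAs. Members, lists and tests were chosen with earlier results of these data known. Young numbers were not taken as pairs in the main fit. Correlations of same-numbered deviations were -0.05, 0.28 and 0.33, against at most 0.106, 0.195 and -0.122 with another number. These values cannot decide whether the numbers pair libraries. The CLL and non-CLL numbers mark shared mice, per the series' design text (correlations 0.02, -0.03, 0.13 and 0.20). Alternatives covered pseudocounts, filters, scaling, background subtraction, blocks and leaving out libraries.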

Additional observations from a re-analysis of the deposited data

Results flagged for a closer look

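Single libraries stood far from the rest of their group for 11 named members, in 12 of 84 sample groups checked. The cut-off flags about 1 in 20 groups when values are independent and normally distributed. Many of these values rest on few reads and the groups share libraries, so the 12 cannot be read against that rate. In CLL library 6, Mir15b was at 24.6 TPM (next highest 3.96), Mir3058 at 34.5 TPM (11.1), Mir5098 at 38.3 TPM (14.9), Mir691 at 20.2 TPM (5.2) and Mir720 at 49.1 TPM (11.4). That library also had the highest olfactory receptor median of the CLL libraries, 9.66 TPM. In CLL library 5, Mir1912 was at 42.0 TPM (10.8) and Mir3101 at 793 TPM (478).

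In non-CLL library 6, Mir1912 was at 176 TPM (23.0), Mir1947 at 60.0 TPM (19.9), Mir449a at 84.0 TPM (18.6) and Mir759 at 52.0 TPM (17.8). These rest on 6, 2, 3 and 2 reads. In non-CLL library 2, Mir181b-1 was at 25.0 TPM, with 0 in the other non-CLL libraries.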

How the results depend on the processing

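For young homozygous against wild-type cells, alternatives of scale, filter, pseudocount and estimation gave 21 to 29 members called, against 27. Leaving out a library gave 22 to 30 members and 27 to 33 pathway genes, and 18 pathway genes were called against wild-type library 3 alone, a fit whose spread comes from the homozygous libraries. With the replicate number as a block 27 members and 30 pathway genes were called. The aged counts moved with most choices. For CLL against wild-type cells, 54 members were called at a pseudocount of 0.1 TPM, 7 at 5 TPM, 2 with a mean of at least 10 TPM, 11 without trend and robust estimation, 1 after background subtraction and 46 with the replicate block, where pairing by number has no basis in the labels. Leaving out a library gave 15 to 99. Pathway genes there numbered 5 at a pseudocount of 0.1 TPM, 3 with heterozygous CLL libraries, 2 with the block and 0 to 6 without a library. For CLL against non-CLL cells, members numbered 3 at 0.1 TPM, 2 with a mean of at least 10 TPM, 1 without trend and robust estimation, 4 after background subtraction, 28 with the mouse as replicate block and 5 to 46 without a library, and pathway genes 0 to 2 without a library. For non-CLL against wild-type cells, members numbered 42 with a mean of at least 10 TPM, 2 after background subtraction and 59 to 118 without a library, and pathway genes 0 under each of the first 2 settings and 3 to 8 without a library. No paired analysis was possible for this comparison because mutant and wild-type libraries come from different mice. The rule itself gave 346 aged members at 5 TPM, 65 at 20 TPM, 82 with a mean of at least 10 TPM, 89 after background subtraction and 156 without non-CLL library 6 (chosen after seeing the data), and 14 young members at 20 TPM. The cause of these moves was not tested. Of the re-tests of named called members, 7 of 193 lost the call in the young comparison, 12 of 131 for CLL against wild-type, 22 of 102 for CLL against non-CLL and 60 of 305 for non-CLL against wild-type cells, and none changed sign. Depth limits the aged values: in non-CLL library 6, 1 read is above the minimum of the rule.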

Other observations

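The Mir17-92 hairpins and their host row were at unlike levels in the tables, which come from different library preparations and were not compared by test. In the young table Mir17, Mir18, Mir19a, Mir20a and Mir19b-1 were at 0 to 2.61 TPM in homozygous and 0 to 2.31 TPM in wild-type libraries, while Mir17hg was at 30.8 to 37.2 TPM in homozygous and 10.8 to 18.6 TPM in wild-type libraries. In the aged table the same hairpins were at 37.9 to 168 TPM in CLL and 58.4 to 280 TPM in non-CLL libraries, beside 72.1 to 145 TPM and 120 to 203 TPM of Mir17hg.

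Of the 12 members of the young table that are not members in the aged one, 4 are not listed there. On the X chromosome lie 34 of the aged members' hairpins and 1 of the young members'.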
